A study of Mus musculus with 2 samples.

Results

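The genes described here were the semaphorins, plexins and neuropilins, a family of guidance ligands and their receptors. They were chosen by symbol (every Sema3 to Sema7 gene, the A, B, C and D plexins, and both neuropilins), which gave 31 of the 33207 genes in the tables: 20 semaphorins, 9 plexins and 2 neuropilins. Their transcripts were counted in single cells from mouse embryos of 2 embryonic stages, E11.5 and E12.5, that carried Egr2-Cre and the R26-Tomato reporter. Egr2, also called Krox20, is active in boundary cap cells, which sit where nerve roots enter and leave the spinal cord, and the Cre switches Tomato on in those cells and everything that descends from them. Meninges and dorsal root ganglia were dissected together with the dorsal and ventral nerve roots. Tomato-positive cells were sorted and loaded as 1 library per stage, each from pooled embryos. Both groups shared the same driver and reporter and differed in stage, so stage, litter and library cannot be told apart, and no wild-type or Cre-negative cells were used here. With 1 library per stage there was no replicate error and no test was made. Every interval below is a 95% counting interval, on the cells of 1 library or, between stages, of 2. None of them covers variation between libraries.

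Semaphorins are secreted or membrane-bound proteins that steer growing axons and migrating cells. The secreted Sema3 proteins bind a neuropilin, which holds the ligand, while a plexin in the same complex carries the signal into the cell. Most membrane-bound semaphorins (Sema4 to Sema6) bind a plexin directly, and Sema7a is anchored by a lipid. Activated plexins act on small GTPases and on the CRMP and MICAL proteins to change the cytoskeleton. In the trunk, neuropilins and Sema3 ligands are known for dividing the neural crest stream into segments and for patterning the axons of sensory and motor nerves, and Sema6 proteins with plexins are known for keeping cells in place at the motor exit points where boundary caps form.

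The E11.5 library held 1431 barcodes with 10287595 UMIs (counted RNA molecules), and the E12.5 library held 3762 barcodes with 23460243 UMIs. The filters left 833 and 3496 cells with a median of 11601 and 6140 UMIs, and 9 barcode sequences occurred in both libraries. Cells were clustered without the 31 genes, Prss56 and Egr2, among 36 genes left out. At E11.5 the clusters gave 538 glia-like, 234 neuron-like and 61 pericyte-like cells. One of the glia-like clusters, with 90 cells, was shallow (median 2839.5 UMIs). At E12.5 there were 1711 glia-like and 1252 neuron-like cells, 36 that were myeloid-like, 42 pericyte-like and 181 mesenchymal-like, and 274 cells of a cluster with Dll1 and Neurog1 among its leading genes that met no class and stayed unnamed. The label of both libraries is boundary cap cells, and Prss56, a boundary cap gene, had at least 1 UMI in 134 of the glia-like cells of the earlier library and 518 of the later one. Of the neuron-like cells, 97% and 93.2% held at least 2 of 4 sensory neuron genes (Pou4f1, Tlx3, Prdm12 and Neurog1), against 18.6% and 6.43% of glia-like cells. A level below is the UMIs of a gene summed over a class, divided by all UMIs of that class and scaled to 1000000 (CPM), which compares classes for the same gene and not one gene with another.

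**Figure D1:**
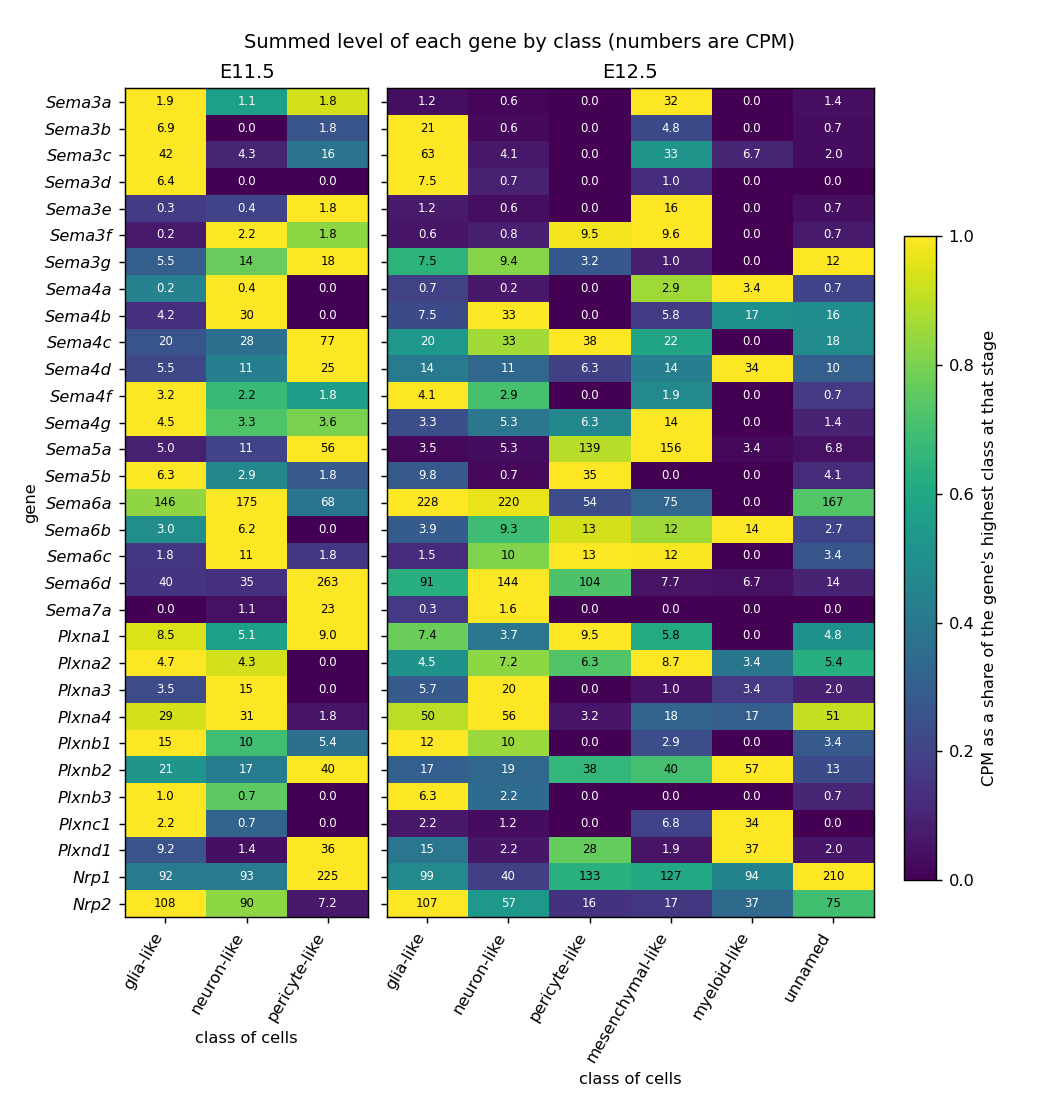
Summed level of each of the 31 genes (rows) in each class of cells (columns) at E11.5 and E12.5; numbers are CPM and colour is the CPM divided by the gene's highest class at that stage. Sema3b, Sema3c and Sema3d peak in glia-like cells at both stages, Sema4b and Plxna3 in neuron-like cells, and Nrp2 stands at 7.19 CPM in pericyte-like cells at E11.5 against 108 CPM in glia-like cells.

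Some ligands and receptors differed between neurons and glia, and most members did not pass the rule. A gene counted as higher or lower where the CPM ratio was at least 2-fold and its counting interval did not hold 1, among genes with at least 20 UMIs over both classes. At E11.5, 24 of the 31 genes had enough UMIs, and 5 were higher and 4 lower in neuron-like than in glia-like cells, which is 37.5% of those measured. Of all genes at that stage, 10.7% were higher and 17.3% lower, 28% together. At E12.5, 26 genes had enough UMIs, with 4 higher and 7 lower, or 42.3%. Of all genes 13% were higher and 22.8% lower, 35.8% together. The median log2 ratio of the family, -0.15 at E11.5 and -0.14 at E12.5, lay beside that of all genes, -0.14 and -0.16. Members lay on both sides, and the genes below are given by their role.

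Among the secreted ligands, 3 were glial at both stages. Sema3c, a ligand that acts through neuropilins and Plxnd1 (chromosome 5, 17779219 to 17935648, GRCm39), had 263 UMIs or 42.2 CPM in E11.5 glia and 12 UMIs or 4.35 CPM in the neurons of that stage. A day later it had 63.4 CPM against 4.07 CPM. The neuronal level was 9.72-fold (5.47 to 19) and 15.6-fold (11.1 to 22.6) lower. Sema3b, a repellent for some axons, had 43 UMIs in E11.5 glia and none in the neurons, at least 6.36-fold lower with a floor of 3 UMIs for the neurons. At E12.5 it stood at 21.4 CPM in glia and 0.582 CPM in neurons, 36.8-fold lower (15.6 to 115). Sema3d, another secreted ligand, showed 40 UMIs against none at E11.5 (at least 5.91-fold lower) and 7.45 against 0.698 CPM at E12.5 (10.7-fold, 4.7 to 30). These levels were not even over the glia. At E11.5 Sema3d had 19 UMIs (28.4 CPM) in a cluster of 63 cells and 17 UMIs (14.7 CPM) in one of 81. Each other glia-like cluster held 0 to 3. Sema3c ranged from 13.3 to 69.1 CPM between the glia-like clusters of that stage. Sema3g, whose protein is secreted too, was not on the glial side. It was higher in neurons at E11.5, with 13.8 against 5.46 CPM (ratio 2.52, 1.54 to 4.13), and at E12.5 its 9.42 and 7.45 CPM differed by less than 2-fold (1.26, 0.917 to 1.74). All 10 of its UMIs in pericyte-like cells at E11.5 lay in 1 cell, described with the other non-neural cells.

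The membrane-bound semaphorins on the neuronal side were Sema4b and Sema6c at both stages. Sema4b, a transmembrane ligand with a binding motif for synaptic scaffold proteins, had 30.1 CPM in neurons and 4.18 CPM in glia at E11.5 (ratio 7.2, 4.59 to 11.7). At E12.5 the levels were 33.4 and 7.45 CPM (4.48, 3.48 to 5.81). Sema6c, one of the Sema6 ligands of A-type plexins, had 11.2 against 1.77 CPM (6.36, 3.11 to 14) and then 10.2 against 1.49 CPM (6.87, 4 to 12.5). The intervals of both genes lay above 2-fold at each stage. Sema5a, a ligand with thrombospondin repeats, was higher in neurons at E11.5 (11.2 against 4.98 CPM, 2.26, 1.33 to 3.84) but stood at 5.35 against 3.54 CPM at E12.5 (1.51, 0.962 to 2.39). Sema6b passed the rule at E12.5 only, with 9.3 against 3.91 CPM (2.38, 1.62 to 3.54). At E11.5 its 6.16 and 3.05 CPM gave a similar ratio with a wider interval (2.02, 0.985 to 4.1).

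Sema5b, the close relative of Sema5a, went the other way. At E12.5 it had 9.78 CPM in glia and 0.698 CPM in neurons, 14-fold lower in neurons (6.23 to 39.1). At E11.5 its 6.26 and 2.9 CPM gave a ratio of 0.463 with an interval that reached 1 (0.187 to 1).

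Sema6a, a transmembrane ligand known for gating cells at boundary cap sites, was detected at similar levels in both classes. It had 146 CPM in glia and 175 CPM in neurons at E11.5 (ratio 1.2, 1.07 to 1.34) and 228 and 220 CPM at E12.5 (0.967, 0.91 to 1.03). Sema6d, a ligand of Plxna1 and Plxna4, had 40.2 and 35.1 CPM at E11.5 (0.875, 0.685 to 1.11) and 90.6 and 144 CPM at E12.5 (1.59, 1.46 to 1.73). Neither reached 2-fold, and the spread of Sema6d between neuronal clusters is given below. Outside the cluster highest in Sema6d, its E12.5 level in neuron-like cells was below that of glia.

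The remaining Sema4 genes stayed under the 2-fold rule at both stages. Sema4c, a ligand of Plxnb2, had 28.3 CPM in neurons and 20.2 CPM in glia at E11.5, and 32.7 and 20.2 CPM at E12.5. Sema4d, the ligand of Plxnb1, had 10.9 and 5.46 CPM at E11.5, with a ratio of 1.99 (1.18 to 3.35), and 11.3 and 14 CPM at E12.5. Sema4f had 2.17 and 3.21 CPM, then 2.91 and 4.1 CPM. Sema4g had 3.26 and 4.5 CPM, then 5.35 and 3.26 CPM. Sema3a, Sema3e, Sema3f, Sema4a and Sema7a had too few UMIs in glia and neurons for a ratio at either stage.

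Of the receptors, Plxna3 and Plxnd1 divided the classes in opposite directions. Plxna3, an A-type plexin used by Sema3 ligands, had 15.2 CPM in neurons and 3.53 CPM in glia at E11.5 (ratio 4.31, 2.51 to 7.57). At E12.5 it had 20.1 and 5.68 CPM (3.54, 2.63 to 4.82). With every cell thinned to 2000 UMIs the E11.5 ratio was 0.862 with an interval of 0.147 to 3.59, so that this gene could not be resolved at that depth. Plxnd1, a receptor for Sema3c and Sema3e (chromosome 6, 115931772 to 115972286), had 9.16 CPM in glia and 1.45 CPM in neurons at E11.5, 6.32-fold lower (2.34 to 24). At E12.5 it had 14.6 and 2.21 CPM, 6.62-fold lower (4.1 to 11.3). Sema3c and Plxnd1 were therefore both on the glial side, and Plxna3 was on the neuronal side.

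Of the other plexins, Plxnb3 passed the rule. Plxna4, the co-receptor of neuropilins for several Sema3 ligands (chromosome 6, 32121203 to 32565193), had 28.8 CPM in glia and 30.8 CPM in neurons at E11.5 (1.07, 0.817 to 1.39) and 50 and 55.8 CPM at E12.5 (1.12, 0.985 to 1.26). The E12.5 level of Plxna4 in neurons rested in part on a single cluster described below, and the other neuron-like cells stood below glia. Plxna1 had 8.51 and 5.07 CPM, then 7.36 and 3.72 CPM (E12.5 ratio 0.506, 0.324 to 0.772), just short of the rule. Plxna2 had 4.66 and 4.35 CPM, then 4.47 and 7.21 CPM. Of the B-type plexins, which bind Sema4 ligands, Plxnb1 had 14.6 and 10.1 CPM at E11.5 and 12 and 10.2 CPM at E12.5 in glia and neurons. Plxnb2 had 20.6 and 16.7 CPM, then 17.1 and 19.3 CPM. Plxnb3 had enough UMIs only at E12.5, where it was 2.87-fold lower in neurons (6.33 against 2.21 CPM, 1.7 to 5.05). Plxnc1, the receptor of Sema7a, had 2.24 and 1.16 CPM at E12.5 with a ratio of 0.52 (0.222 to 1.13).

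Both neuropilins were detected in glia and in neurons. Nrp1, which binds Sema3a and also VEGF (chromosome 8, 129085085 to 129231082), had 92.4 CPM in glia and 92.7 CPM in neurons at E11.5 (ratio 1, 0.863 to 1.17). At E12.5 it had 99 and 39.8 CPM, 2.49-fold lower in neurons (2.2 to 2.82). The E12.5 ratio depended on the clustering and filters and lay between 0.534 and 0.779, short of 2-fold, under 6 other settings. The cells counted as neurons also changed with the setting. With finer clusters, 200 cells of a cluster with all 19 neuronal markers stayed unnamed, and without the doublet filter 231 did. The part of these cells in the ratios was not tested. With the unnamed cluster counted as neurons it was 0.654 (0.592 to 0.721), and without the neuron clusters that rested on few markers the E11.5 ratio was 0.351 (0.262 to 0.462). Nrp2, which binds Sema3c and Sema3f (chromosome 1, 62742444 to 62857854), had 108 and 89.8 CPM at E11.5 (0.83, 0.714 to 0.961) and 107 and 57 CPM at E12.5 (0.532, 0.478 to 0.592).

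**Figure D2:**
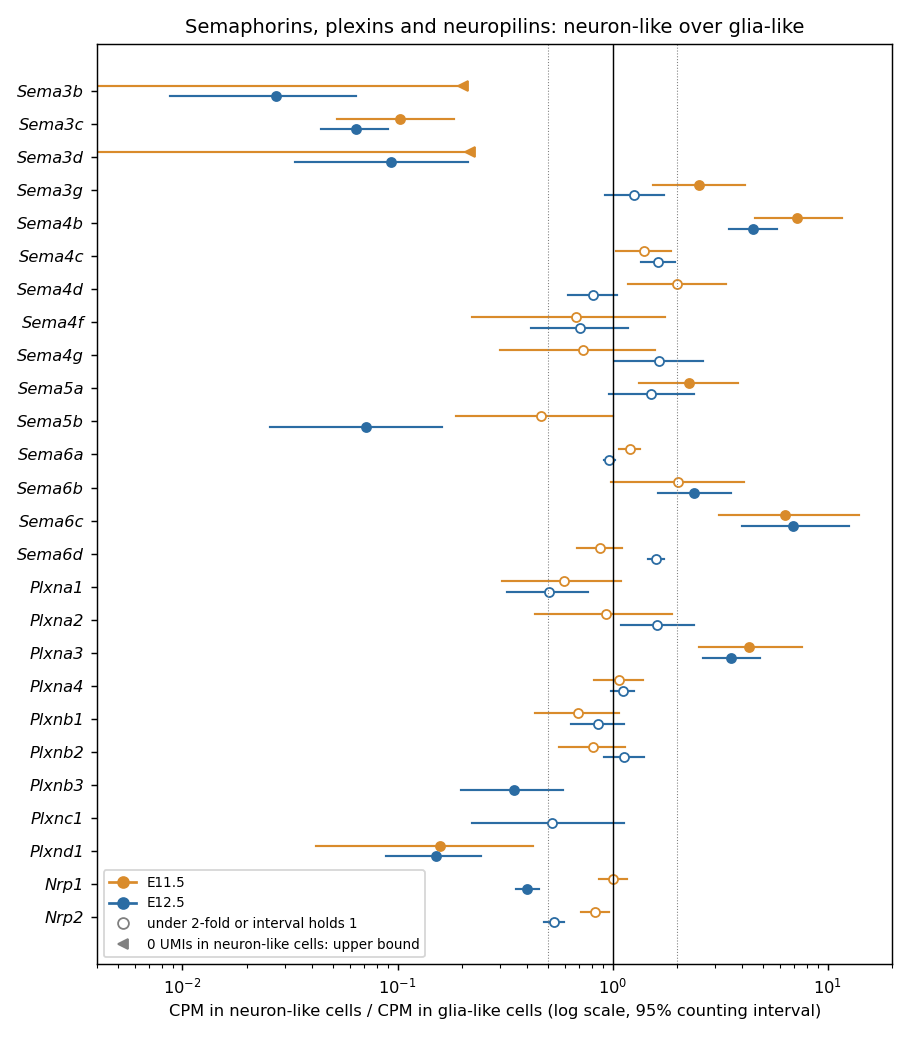
Ratio of CPM in neuron-like cells to CPM in glia-like cells (log axis) for every gene with enough UMIs at E11.5 (orange) or E12.5 (blue); lines are 95% counting intervals, filled points are at least 2-fold with an interval off 1, and dotted lines mark 2-fold. Sema3b, Sema3c, Sema3d and Plxnd1 lie to the left at both stages, Sema4b, Sema6c and Plxna3 to the right, and Sema6a and Plxna4 near 1. The E12.5 Plxna4 point rests in part on a single neuron-like cluster.

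The 250 bases before the start of the canonical transcript were read from GRCm39 for all 31 genes, to see whether the glial and neuronal members held sites for the factors that mark those lineages. The sequences below belong to the pair of genes with the largest difference in each direction at E12.5 among those that differed at both stages, Sema3b and Sema3c on the glial side and Sema4b and Sema6c on the neuronal side. They are written along the gene's own strand, and capitals would mark a match to any of 4 motifs on either strand: the E-boxes CAGATG and CAGCTG, bound by neurogenic bHLH factors, and the Sox sites ACAAAG and ACAATG. The windows are chr9:107486457-107486706 (minus strand) for Sema3b, chr5:17778969-17779218 for Sema3c, chr7:79847889-79848138 for Sema4b and chr3:95067481-95067730 for Sema6c, all on the plus strand but the first. The Sema4b window lies inside that gene, which starts at 79836046, as do the windows of some other members, Sema3a and Sema6d among them. UMIs were counted per gene and do not tell which start was used.
Sema3b: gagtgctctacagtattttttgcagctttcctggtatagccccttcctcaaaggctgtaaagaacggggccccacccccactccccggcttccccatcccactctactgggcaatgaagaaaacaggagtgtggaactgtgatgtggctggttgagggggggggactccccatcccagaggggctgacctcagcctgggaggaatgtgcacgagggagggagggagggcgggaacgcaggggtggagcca
Sema3c: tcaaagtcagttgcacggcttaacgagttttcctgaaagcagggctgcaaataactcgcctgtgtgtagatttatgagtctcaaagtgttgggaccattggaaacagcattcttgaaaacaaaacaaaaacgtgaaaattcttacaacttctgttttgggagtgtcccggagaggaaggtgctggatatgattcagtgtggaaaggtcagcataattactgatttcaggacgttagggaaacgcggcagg
Sema4b: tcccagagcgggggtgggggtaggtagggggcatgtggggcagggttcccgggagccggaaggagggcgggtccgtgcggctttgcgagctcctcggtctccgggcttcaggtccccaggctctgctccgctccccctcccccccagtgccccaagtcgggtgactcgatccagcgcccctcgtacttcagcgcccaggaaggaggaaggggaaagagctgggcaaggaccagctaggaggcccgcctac
Sema6c: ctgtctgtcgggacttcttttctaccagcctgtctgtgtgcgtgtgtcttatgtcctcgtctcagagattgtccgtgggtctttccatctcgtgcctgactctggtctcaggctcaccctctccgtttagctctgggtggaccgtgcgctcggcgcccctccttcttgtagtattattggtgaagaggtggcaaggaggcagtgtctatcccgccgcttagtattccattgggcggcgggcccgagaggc
None of the 4 windows held any of the motifs, which says only that these letters are not in them. Over the family, CAGATG occurred in 2 of 31 windows against 13% of 21770 protein-coding genes, CAGCTG in 5 against 11.9%, ACAAAG in 5 against 15.9% and ACAATG in 1 against 9.41%. The 5 with ACAAAG were Sema3a, Sema3d (2 matches), Sema3g, Plxnb3 and Plxnc1. Of these, Sema3d was higher in glia at both stages and Plxnb3 at E12.5, while Sema3g was higher in neurons at E11.5. The pair with CAGATG was Plxnd1 and Sema3f. The family's windows were richer in G and C than those of all genes, with a median of 61.2% (43.6% to 76%) against 53.2%. The GC-poorest was that of Sema3c.

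Glia-like cells with and without Prss56 differed in Nrp1. Prss56 marks boundary cap cells, and positive cells were those with at least 1 UMI. At E11.5 Nrp1 had 94 UMIs or 53 CPM (42.8 to 64.9) in the 134 positive cells and 481 UMIs or 108 CPM (98.6 to 118) in the 404 negative cells, 2.04-fold lower (1.63 to 2.57). At E12.5 it had 51.3 CPM (43.7 to 59.8) in 518 positive and 119 CPM (111 to 127) in 1193 negative cells, 2.32-fold lower (1.97 to 2.76). The intervals of the levels did not overlap at either stage. Nrp1 was the only one of the 22 measured members past the rule at E11.5, where 1.45% of all genes were lower and 2.67% passed either way. At E12.5, 1 of 25 was higher and 2 were lower, 12%, where 2.36% of all genes were higher and 1.58% lower, 3.94% together. Nrp2 did not pass the rule, with 115 and 106 CPM at E11.5 (ratio 1.09, 0.92 to 1.29). At E12.5 its 91.2 and 114 CPM went the same way as Nrp1 but stayed under 2-fold (0.801, 0.699 to 0.916). Within single clusters the Nrp2 interval lay off 1 in 1 at E11.5, where it was higher in positive cells. At E12.5 it lay off 1 in 2, where Nrp2 was lower.

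The E11.5 Nrp1 ratio lay between 0.522 and 0.527, just short of 2-fold, with coarser clusters, without the doublet filter or without glia that held sensory genes. The share of cells was lower too. At E12.5, 20.7% of positive and 42.9% of negative cells held a Nrp1 UMI, and with all cells thinned to 2000 UMIs the shares were 9.36% (6.96 to 12.3) and 19.7% (17.4 to 22.1). At E11.5 the shares were 37.3% and 53.2%, or 7.46% (3.64 to 13.3) and 16.3% (12.9 to 20.3) when thinned. Median depths were 13244.5 and 11409 UMIs at E11.5 and 5532.5 and 6081 at E12.5. For comparison, 1.81% of cells in the E12.5 neuron-like cluster with the least Nrp1 held a UMI after thinning and 5.64% before (median 8003 UMIs). Within single glia-like clusters Nrp1 was lower in positive cells in 5 of 6 at E11.5, with the interval off 1 in 3. The exception was a cluster with 2 positive cells (348 against 168 CPM, 2.07, 1.04 to 3.72). At E12.5 it was lower in 4 of 5 clusters, 3 of them off 1, and the exception was a cluster with 8 positive cells (167 against 158 CPM). The glia-like clusters with the smallest and the largest share of positive cells also held the extremes of Nrp1. It was 175 CPM in the E11.5 cluster with 3.33% positive cells and 49.3 CPM in that with 46.8%, and 158 CPM in the E12.5 cluster with 2.91% and 28.7 CPM in that with 57.7%. The levels in the other clusters lay between these at each stage, without following the share in the earlier library. There Nrp1 was 73, 84.5, 121 and 91.8 CPM at 14.4%, 16.1%, 23.8% and 32.1% positive cells. In the later library it was 96.3, 87 and 87.7 CPM at 13.9%, 37.7% and 48.3%. The clusters with the smallest shares also had the largest Neurog1 shares among glia-like clusters. These were 66.7% (earlier library) and 29.1% (later). Whether Nrp1 follows Prss56 or Neurog1 across clusters was not tested.

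Plxna4 and Sema5b joined Nrp1 at E12.5. Plxna4 had 22 CPM in positive and 61.8 CPM in negative cells, 2.81-fold lower (2.18 to 3.66), and it was lower in 4 of 5 clusters, 3 of them with the interval off 1. At E11.5 its 27.6 and 29.2 CPM differed by less than their intervals (0.946, 0.667 to 1.32). Sema5b was higher in positive cells at E12.5, 17.3 against 6.62 CPM (2.61, 1.75 to 3.91), but in a single cluster only did its interval lie off 1 (24.4 against 8.89 CPM). At E11.5 it had 5.64 and 6.51 CPM. Whether these differences change between the stages was not tested.

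Sema3c and Sema6d did not reach 2-fold between Prss56-positive and negative cells. Sema3c had 53.6 and 37.7 CPM at E11.5 (1.42, 1.09 to 1.84) and 82.7 and 55.3 CPM at E12.5 (1.49, 1.28 to 1.75). Sema6d had 128 and 74.8 CPM at E12.5 (1.71, 1.5 to 1.95) and 44.5 and 38.4 CPM at E11.5 (1.16, 0.877 to 1.52). Within the 6 glial clusters of E11.5, Sema3c was higher in positive cells in 2 and Sema6d in 3. Within the 5 of E12.5 these were 3 and 4. The interval lay off 1 in 1 cluster for each gene at E12.5 and in none at E11.5. Sema6a differed less, with 149 and 145 CPM at E11.5 and 256 and 216 CPM at E12.5 (1.19, 1.09 to 1.29).

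**Figure D3:**
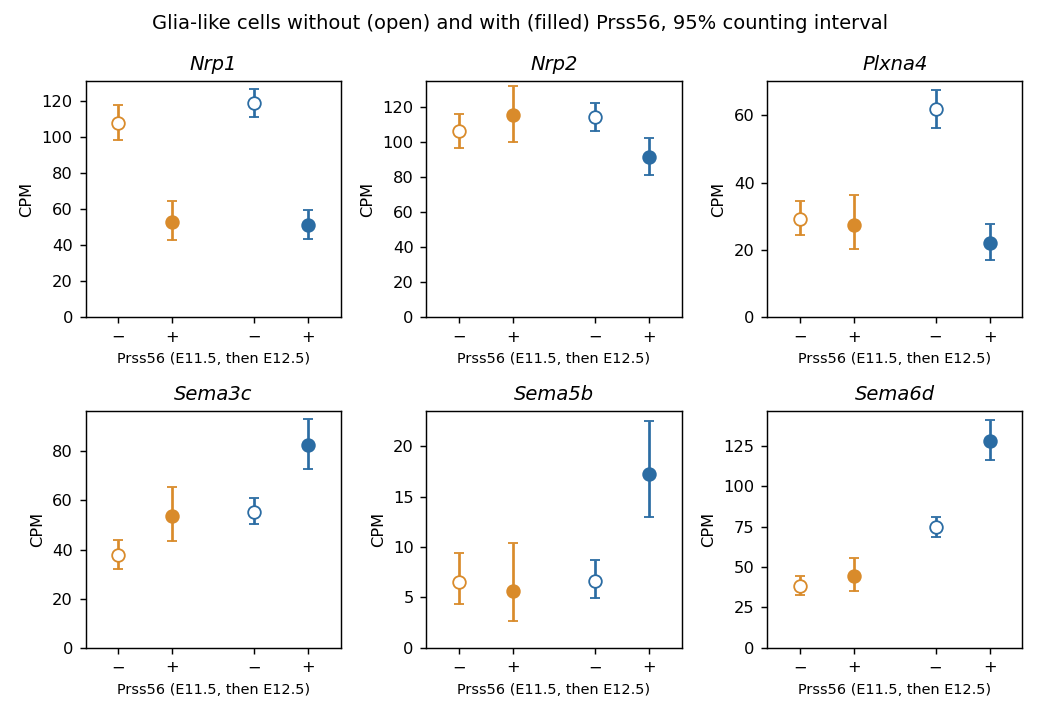
CPM of 6 genes in glia-like cells without (open) and with (filled) Prss56 at E11.5 (orange, left pair) and E12.5 (blue, right pair), with 95% counting intervals; axes start at 0. Nrp1 is lower in Prss56-positive cells at both stages (53 against 108 CPM, 51.3 against 119 CPM) and Plxna4 at E12.5 only (22 against 61.8 CPM).

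Within the neurons, Nrp1 and Sema6d spanned a wide range of levels. The neuron-side clusters were put in order by the summed level of the 19 neuronal markers, which include none of the 31 genes. At E11.5, Nrp1 was 178 and 211 CPM in the clusters with the lowest sums (4430 and 4490 CPM), 54 CPM at 9750 CPM, 19.1 CPM at 14100 CPM and 29.2 CPM at 22700 CPM. The clusters with the lowest sums rested on 4 and 6 of the 19 markers and held Neurog1, a factor of newly specified sensory neurons, in 97.4% and 72.5% of cells. Along the rest of the order Neurog1 was found in 83.7%, 78.9% and 37.8% of cells. At E12.5 the unnamed cluster (2940 CPM) had 210 CPM of Nrp1. Then came 78.8, 69.8, 30.8 and 7.95 CPM at marker sums of 4810, 7460, 13400 and 20800 CPM. At the highest sum, 28600 CPM, Nrp1 was again 122 CPM. Nrp1 was thus high in the clusters with the lowest marker sums of both libraries, low further along, and high once more in the last E12.5 cluster.

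Nrp2 varied less at E11.5, where it stayed between 76.2 and 112 CPM in all 5 clusters. At E12.5 it was 74.7, 78.8 and 106 CPM in the clusters with the lowest sums and then 59.9, 40.1 and 22.2 CPM. Sema6d ran opposite to Nrp1 over most of the order. It was 2.07 to 15.9 CPM in 4 of the E11.5 clusters and 122 CPM in the one with the highest sum. At E12.5 it was 13.6, 11, 20.6, 36.1, 135 and 796 CPM from the lowest to the highest sum.

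The E12.5 cluster of 113 cells with the highest sum, here the last cluster, combined Nrp1 with Sema6d and was led by Prph, Scn9a, Gal and Th. Pou4f1, a sensory factor, stood at 480 CPM in it, and Hand2 and Dbh, found in sympathetic neurons, had 0 UMIs. The cluster was compared with the other neuron-like cells after its levels were seen, so the following values are a description. Sema6d was 796 against 75.9 CPM (10.5-fold, 9.37 to 11.8). A Sema6d UMI was held by 73.5% of the cells of the last cluster, or 60.3% after thinning. Mesenchymal-like cells, a non-neural class low in Sema6d, held 3.31% and 1.18% (median depths 5866 and 5768 UMIs). That contrast is not one among neurons, and the shares of the other neuron-like clusters are not given here. Plxna4 was 300 against 30.4 CPM (9.84, 8.2 to 11.8). Plxna2, another A-type plexin, was 38.2 against 3.98 CPM (9.6, 5.64 to 16.3). Sema6d and Plxna4, a ligand and a receptor able to bind it, were thus high in the same cluster. Sema3c (10.2-fold), Sema4f (5.4-fold) and Nrp1 (3.91-fold) were higher there too, and Nrp2 (22.2 against 60.6 CPM, 0.366) and Sema3g (0.243) were lower. That made 6 higher and 2 lower of 20 measured members, 40%, where 10.8% of all genes were higher and 5.72% lower, 16.5% together.

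**Figure D4:**
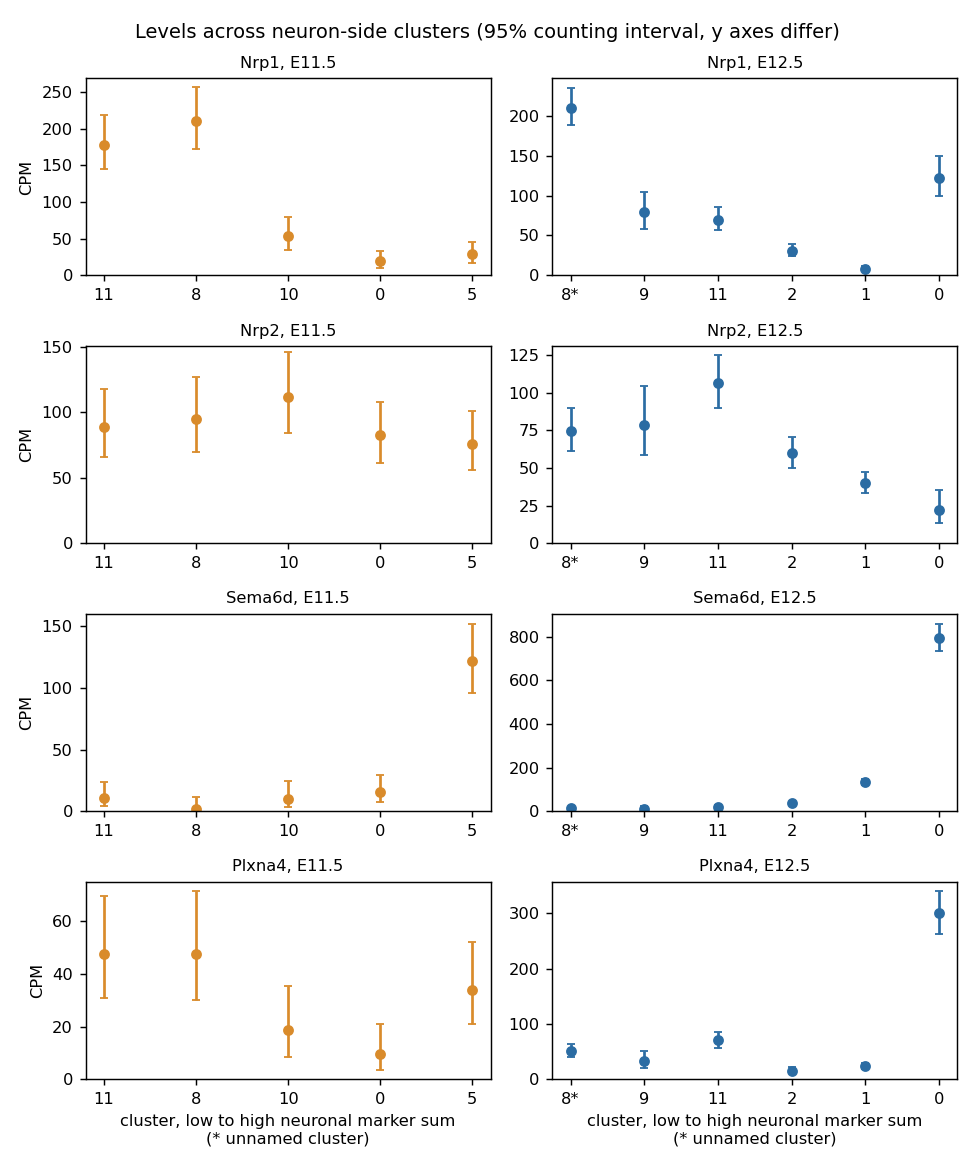
CPM of Nrp1, Nrp2, Sema6d and Plxna4 in each neuron-like cluster and in the unnamed E12.5 cluster (marked with a star), from left to right by the summed level of 19 neuronal markers; bars are 95% counting intervals and the y axes differ between panels. Nrp1 spans 211 to 19.1 CPM across the E11.5 clusters and 210 to 7.95 CPM across the E12.5 clusters, with 122 CPM in the last, where Sema6d reaches 796 CPM and Plxna4 300 CPM.

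Nrp1 was high in the unnamed cluster. Its 310 UMIs or 210 CPM were 5.29-fold those of neuron-like cells (4.52 to 6.19) and 2.12-fold those of glia-like cells (1.87 to 2.41). It held few UMIs of the glial ligands, with 1 UMI of Sema3b, 3 of Sema3c and none of Sema3d. Plxna3, a gene higher in neurons than in glia, was low as well, at 2.04 CPM (9.88-fold below neurons, 3.33 to 48.4). Sema6d, which did not reach 2-fold between neurons and glia, was at 13.6 CPM (10.6-fold below neurons, 6.83 to 17.4). Its neuronal level rested in part on the last cluster. Sema4b (16.3 CPM) lay between, 2.05-fold below neurons and 2.19-fold above glia. Sema4g, Sema6b, Sema6c and Plxnb1 (1.36 to 3.39 CPM) were below neurons, and Sema4f, Sema5b, Sema6d, Plxnb1, Plxnb3 and Plxnd1 (0.679 to 13.6 CPM) below glia. In all, 1 member was higher and 7 lower than in neurons, 36.4% of 22, where 7.88% of all genes were higher and 13.1% lower, 21% together. Against glia 2 were higher and 9 lower, 42.3% of 26, where 5.08% of all genes were higher and 17.3% lower, 22.4% together. The summed haemoglobin and red cell markers stood at 3620 CPM in this cluster, and their part in these levels was not tested.

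The cells outside the glia and neurons differed from them in many members. At E11.5 these were the 61 pericyte-like cells, in which 8 of 24 measured members were higher and 5 lower than in glia-like and neuron-like cells together. That is 54.2%, where 11.6% of all genes were higher and 10.2% lower, 21.8% together. Sema6d had 263 CPM against 38.6 CPM (6.8-fold, 5.56 to 8.27), and Sema5a had 55.7 against 6.9 CPM (8.08, 5.07 to 12.6). Sema4c (77.3 CPM, 3.41-fold), Sema4d (25.2 CPM, 3.53-fold), Plxnb2 (39.6 CPM, 2.04-fold), Plxnd1 (36 CPM, 5.3-fold) and Nrp1 (225 CPM, 2.43-fold) were also higher. Sema3g passed the rule too (18 CPM, 2.24-fold), on 10 UMIs that all lay in 1 cell. Nrp2 was nearly missing, with 4 UMIs or 7.19 CPM against 103 CPM, 14.3-fold lower (5.55 to 52.5). Plxna4 had 1 UMI (16.3-fold lower, 2.91 to 648), Sema6a was at 68.3 against 155 CPM, and Sema4b and Plxna3 had none (at least 2.25-fold and 1.32-fold lower). Sema7a, the lipid-anchored ligand, had 13 UMIs or 23.4 CPM in this class, all in 1 cell, and 0 and 3 UMIs in glia and neurons, under the minimum of 20 for a ratio.

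Endothelial genes were detected in that class. All 8 genes of an endothelial list were detected among the pericyte-like cells, at a summed 807 CPM at E11.5 and 1220 CPM at E12.5, against 18.7 CPM in the E11.5 lineage cells. Cldn5 and Cdh5, which define endothelium, came from 2 cells each at E11.5 and 3 each at E12.5. Most others of the list were in more cells. At E11.5 Emcn was in 40 of 61 cells, Esam in 31, Egfl7 in 14, Pecam1 and Tek in 5 each and Tie1 in 4. At E12.5 Esam was in 23 of 42 cells, Pecam1 in 10, Emcn in 9, Egfl7 in 8, Tek in 4 and Tie1 in 2. The split that follows rests on Cldn5 and Cdh5 alone, so cells with only the other genes stayed in. Without the 3 cells that held either gene, Sema3g at E11.5 dropped from 10 UMIs to 0, Plxnd1 was 24.4 CPM (3.6-fold over the lineage, 1.76 to 6.75) and Nrp1 was 181 CPM (1.96-fold, 1.56 to 2.44). The 3 cells together had 123 CPM of Plxnd1 and 554 CPM of Nrp1, and 1 of them held all 10 UMIs of Sema3g. Sema6d (269 CPM) and Sema5a (63.1 CPM) were as high without them. That left 6 members higher and 5 lower, and the share of all genes was not recomputed without these cells.

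At E12.5 the non-neural cells were mostly mesenchymal-like, and 7 of 29 measured members were higher and 11 lower than in the lineage, 62.1%, where 14.3% of all genes were higher and 10.1% lower, 24.4% together. The mesenchymal-like cells alone had 8 higher and 12 lower, 69%, where 12.9% of all genes were higher and 9.49% lower, 22.3% together. High among them were 4 ligands: Sema5a with 156 against 4.35 CPM (35.9-fold, 27.4 to 47.3), Sema3a with 31.8 against 0.931 CPM (34.2, 18.7 to 64.4), Sema3e with 16.4 against 0.931 CPM (17.6, 8.52 to 36.2) and Sema3f with 9.64 against 0.672 CPM (14.3, 5.63 to 35.4). Sema3a, Sema3e and Sema3f are among the ligands that had too few UMIs in glia and neurons. Sema4g (13.5 CPM, 3.22-fold), Sema6c (12.5 CPM, 2.33-fold), Plxnb2 (40.5 CPM, 2.24-fold) and Plxnc1 (6.75 CPM, 3.84-fold) were higher as well. Sema6d was 14.8-fold lower (7.51 to 34.4), Nrp2 4.89-fold lower (3.08 to 8.27) and Sema6a 2.98-fold lower (2.39 to 3.78) in these cells. Sema3b (4.82 CPM), Sema4b (5.78 CPM), Plxna4 (18.3 CPM) and Plxnb1 (2.89 CPM) were lower too, as were Sema3g, Plxna3 and Plxnd1 with 1 or 2 UMIs each and Sema5b and Plxnb3 with none (at least 1.99-fold and 1.56-fold lower). Pooled over all non-neural cells, Sema3d (1 UMI, 0.606 CPM against 4.45 CPM) was also lower, and Sema5a (28.9-fold) was higher. In the mesenchymal-like cells alone Nrp1, at 127 CPM against 72.7 CPM in the lineage, stayed under 2-fold.

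The 42 pericyte-like cells at E12.5, led by the smooth muscle genes Acta2 and Tagln, had 4 members higher and 7 lower of 26, 42.3%, where 9.17% of all genes were higher and 7.96% lower, 17.1% together. Sema5a was 139 CPM (32-fold, 21.7 to 46.6) and Sema5b, otherwise a glial gene, was 34.7 CPM (6.05-fold, 2.94 to 11.3). Plxnd1 was 28.4 CPM (3.12, 1.4 to 6.06), or 19.1 CPM with an interval that held 1 without the 3 cells with Cldn5 or Cdh5 (2.1, 0.673 to 4.99). Plxnb2 was 37.9 CPM (2.09, 1.07 to 3.7). Sema6a (53.7 CPM, 0.239), Nrp2 (5 UMIs in 1 cell, 15.8 CPM, 0.186) and Plxna4 (1 UMI) were lower, and Sema3b, Sema3c, Sema4b and Plxna3 had no UMI (at least 1.28-fold, 3.91-fold, 2-fold and 1.28-fold lower). Sema6d, at 104 CPM against 114 CPM in the lineage, did not pass the rule (0.912, 0.626 to 1.28).

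The 36 myeloid-like cells were high in several receptors. Plxnc1 had 10 UMIs or 33.7 CPM against 1.76 CPM (19.2-fold, 8.44 to 39.7), Plxnd1 37.1 CPM (4.07, 2 to 7.47), Plxnb2 57.3 CPM (3.16, 1.82 to 5.14) and the ligand Sema4d, which immune cells also use, 33.7 CPM (2.64, 1.25 to 4.93). Sema6a had no UMI in these cells, at least 22.2-fold below the 224 CPM of the lineage. Sema4c had none either (at least 2.55-fold lower), Sema3c and Sema6d had 2 UMIs each, and Plxna4 was at 16.8 CPM (0.32, 0.104 to 0.75). These 4 higher and 6 lower members were 38.5% of 26, where 9.12% of all genes were higher and 16% lower, 25.1% together. Nrp2, at 37.1 CPM, was lower than in the lineage (84.8 CPM), as it was in all non-neural classes of both libraries, while Nrp1 was 94.4 CPM.

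Between the libraries few members differed within a class. In glia-like cells 4 of 27 were higher at E12.5, or 14.8%, and none was lower, where 8.94% of all genes were higher and 1.8% lower, 10.7% together. They were Sema3b (21.4 against 6.91 CPM, 3.1-fold, 2.23 to 4.4), Sema4d (14 against 5.46 CPM, 2.56, 1.75 to 3.83), Sema6d (90.6 against 40.2 CPM, 2.25, 1.96 to 2.6) and Plxnb3 (6.33 against 0.964 CPM, 6.57, 2.87 to 18.5). Nrp1 and Nrp2 in glia stood at 92.4 and 99 CPM and at 108 and 107 CPM in the 2 libraries.

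In neuron-like cells, Sema6d was 4.09-fold higher at E12.5 (144 against 35.1 CPM, 3.33 to 5.09), and Nrp1 (39.8 against 92.7 CPM) and Sema5a (5.35 against 11.2 CPM) were lower, 13.6% of 22 members, where 7.3% of all genes were higher and 3.88% lower, 11.2% together. The Nrp1 difference depended on the clusters counted as neurons. Without the clusters that rested on few markers the ratio was 1.13 (0.848 to 1.53), and with coarser clusters 1.01 (0.85 to 1.21). Sema6d under those same settings was 2.97-fold and 2.92-fold higher. Its E12.5 level also rested in part on the last cluster described above, and it was lower in the other neuron-like cells.

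Neuropilins and A-type plexins act in one complex, so their joint detection was counted cell by cell. Nrp1 and Plxna4 were both detected in 15.1% (12.1 to 18.4) and 11.9% (10.4 to 13.5) of the glia of the earlier and the later library, above the products of their separate shares, 11.1% and 7.97%. In neuron-like cells the joint share was 12% (8.1 to 16.8) and 6.07% (4.81 to 7.54), with products of 8.31%, inside the interval, and 3.21%, below it. With every cell thinned to 2000 UMIs the joint shares were 1.49%, 1.78%, 1.71% and 1.09% in glia at E11.5 and E12.5 and neurons at E11.5 and E12.5. Each interval then held the product. No excess was therefore detectable at equal depth, where few cells hold both genes. Over all 8 pairs of a neuropilin and an A-type plexin in glia and neurons of both stages, the product lay below the interval in 6 of 32 cases without thinning, 5 of them with Plxna4, and in 0 of 32 with it.

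Other genes of the pathway, a list of 58 co-receptors, effectors, processing enzymes and further neuropilin ligands, gave 7 higher and 10 lower in neurons than in glia at E11.5, and 8 higher and 15 lower at E12.5. That is 35.4% of the 48 and 44.2% of the 52 with enough UMIs, where 28% and 35.8% of all genes passed either way. Over both stages 6 were higher and 9 lower. At E12.5 the higher ones were Cntn2, an adhesion molecule that works with L1 in Sema3 responses (48.3-fold), and Cdk5r1, the activator of the kinase that primes CRMPs (14.3-fold). With them were the CRMP family members Crmp1 (330 against 8.48 CPM, 38.9-fold), Dpysl4 (21.1-fold), Dpysl5 (11.9-fold) and Dpysl2 (844 against 233 CPM, 3.63-fold). The CRMP family was not all on the neuronal side. Dpysl3, its other member on the list, was lower in neurons at E11.5 (148 against 487 CPM, 3.29-fold) and at E12.5 (232 against 543 CPM, 2.34-fold, 2.23 to 2.47). On the glial side Chl1, an L1-family partner of Nrp1, had 219 CPM in glia and 2.67 CPM in neurons (81.9-fold lower, 54.5 to 130). Erbb2, which can pair with B-type plexins, was 42.7-fold lower (19.4 to 117), and the plexin effectors Sh3bp1 (10.2-fold), Mical1 (4.89-fold) and Farp2 (3.54-fold) and the plexin-domain protein Plxdc2 (6.96-fold) were lower too. Of the co-receptors 1 was higher and 5 were lower in neurons at E12.5, and of the effectors 7 were higher and 8 lower.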

How the data were processed

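The deposited values were raw UMI counts per gene and cell barcode, which the authors made with Cell Ranger (7.0 in the submitters' processing notes, 7.0.1 in the matrix headers) and STAR on mm39 from 10x 3′ libraries, and no replicate was pooled or averaged in the files. Whether intronic reads were counted is not given in the sources used here. The 31 genes, the lists and the tests were chosen with earlier results of these data known. Following the study's methods, cells were kept with at most 10% mitochondrial UMIs, at least 2000 (E11.5) or 1000 (E12.5) UMIs and a Scrublet score under 0.2. Each library was clustered with scanpy 1.11.5 (3000 variable genes, 30 components, 15 neighbours, Leiden resolution 1) without 36 genes, among them the 31, Prss56 and Egr2. Classes were compared by the fraction of their marker list that a cluster held, and at least 3 markers were required. Holding the markers was not always enough, and some clusters with all 19 neuronal markers stayed unnamed under the alternatives. At E12.5 these were 200 cells with finer clusters and 231 cells without the doublet filter. At E11.5 they were 47 cells with finer clusters. Such cells were not counted as neuron-like in those settings. UMIs were summed per class, with exact Poisson intervals for CPM, exact conditional binomial intervals for ratios and Clopper-Pearson intervals for shares (scipy 1.17.1), all at 95% and for counting error only. Gene and transcript positions came from GENCODE M39 on GRCm39. Every measured gene was named, and of the pathway list the 6 with the largest ratio each way at E12.5 among those past the rule at both stages. The ratios and intervals were run on simulated counts that held only the counting error the intervals assume. UMIs clumped in single cells were not simulated, so the run does not bear on them. Alternatives changed the clustering, scaling, UMI minimum, fold, doublet and depth filters, and class definitions. One comparison among neurons is not reported here.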

Additional observations from a re-analysis of the deposited data

Results flagged for a closer look

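Outside the 31 genes, UMIs were found for 2 genes annotated on the strand opposite Plxna4, above the limit of 3 counts that an absent gene allows. Among the kept cells, Plxna4os3 had 10 UMIs in the E11.5 library and 23 in the E12.5 library, where Plxna4os1 had 12. These are few molecules, and their cells were not compared.

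Sema3g and Sema6d stood on opposite sides of the lineage in the non-neural cells of the 2 stages, and the difference between stages was not tested. Sema3g was 2.24-fold higher in non-neural cells of the E11.5 library and had a ratio of 0.145 at E12.5, and all 10 of its E11.5 non-neural UMIs lay in 1 cell, one of those with Cldn5 or Cdh5. Sema6d was 6.8-fold higher at E11.5 and had a ratio of 0.228 at E12.5. The earlier non-neural class was pericyte-like and the later one mostly mesenchymal-like. In pericyte-like cells alone Sema6d stood at 263 and 104 CPM.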

How the results depend on the processing

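No paired analysis was possible because each stage had 1 library. The counts of members between neurons and glia, by Prss56, between pooled non-neural cells and the lineage, and between stages were recomputed. This was done under 14 alternatives, where they applied, and 4 more chosen after seeing the data. Counts for the unnamed cluster, the last cluster, the single non-neural classes of E12.5 and the pathway list were not recomputed. Of the recomputed counts and shares, 133 kept within 1.5 times or within the interval, and 23 did not. Of the named ratios 555 stayed within the counting interval of the reported value, 56 left it and 6 turned.
With cells thinned to 2000 UMIs, the neuron and glia counts at E11.5 were 1 higher and 1 lower, the Prss56 count at E11.5 was 2, the non-neural counts were 3 higher and 2 lower at E11.5 and 2 higher at E12.5, and the glial stage count was 2. Without thinning, Nrp1 and Plxna4 were seen together in 15.1% and 11.9% of glia and 12% and 6.07% of neurons. With a minimum of 50 UMIs, 2 members were lower in neurons at E11.5. With no minimum, 2 differed by Prss56 at E11.5. With a fold of 1.5, 8 were higher in neurons at E12.5, 5 differed by Prss56 at E12.5, and 10 in glia and 5 in neurons differed between stages. The mean over cells gave 3 for Prss56 at E11.5 and 5 higher in non-neural cells at E11.5. The Prss56 count at E11.5, which is Nrp1 alone, was 0 at Leiden resolution 0.5, without the doublet filter and without glia with 2 sensory genes, where Nrp1 fell short of 2-fold. With 2000 UMIs required in both libraries, 1 member differed between stages in neurons. The shares of all genes were not recomputed under these settings, so the counts in this paragraph cannot be read against them.
The Nrp1 stage ratio in neurons turned to 1.01 at resolution 0.5 and 1.13 without clusters on few markers. The Plxna3 ratio at E11.5 turned to 0.862 when thinned. The Sema3g ratio in non-neural cells at E11.5 turned to 0.337 as a mean over cells and to 0 when thinned or without the cells with Cldn5 or Cdh5. Except for the clustering, which cells were dropped or the depth itself, the cause of these shifts was not tested.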
